A study of Mus musculus with 6 samples.

Results

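The 10 genes described here encode small leucine-rich proteoglycans, and were picked by symbol: Ogn, Dcn, Bgn, Lum, Fmod, Omd, Prelp, Aspn, Podn and Ecm2. They are 10 of the 21853 protein-coding genes of the deposited table, each on 1 row. The study sequenced messenger RNA from cultured embryonic fibroblasts of the mouse, connective tissue cells taken from embryos, of strain C57BL/6J with an age given as 12 days. All of these cells, the controls included, were knocked out for xCT (Slc7a11), the cystine importer whose loss leaves cells prone to ferroptosis, an iron-driven form of cell death. In 3 libraries the cells had received red clover extract (RCE) and in 3 water (control). The comparison asks what the extract changes in cells that lack this importer. The dose, the length of exposure, the medium and whether the cells were a clone or a line are not given in the labels.

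Small leucine-rich proteoglycans are secreted proteins built around a curved run of leucine-rich repeats. Many bind collagen fibrils and set how thick and how evenly spaced they become, and several hold growth factors such as TGF-beta in the matrix. Some carry chondroitin, dermatan or keratan sulfate chains, others none. They are grouped in classes by sequence and gene structure. Fibroblasts are a main source of them in connective tissue, and their genes lie in small groups on a few chromosomes.

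Levels are in FPKM, a fragment count divided by transcript length and library depth, so they can be compared between genes. Depth recovered from the steps of low values was 45650000 to 58950000 fragments per library. Slc7a11 was at 0.009, 0.017 and 0.007 FPKM in RCE libraries 1, 2 and 3 (replicate numbers as labelled, here RCE 1 and so on) and at 0.013, 0.027 and 0.037 FPKM in control 1, 2 and 3 (p = 0.2 in a 2-sided exact permutation test, whose lowest possible p is 0.1 with these group sizes). All 10 fibroblast markers were above 1 FPKM, while the 4 markers each of endothelium, leukocytes and epithelium included 1 above that mean level per list. These were Kdr at 1.19 FPKM in RCE and 1.20 FPKM in control, Cd68 at 2.99 FPKM in RCE and 3.32 FPKM in control, and Krt18 at 1.64 FPKM in RCE and 2.18 FPKM in control, none of them past the threshold. Pecam1, Cdh5, Ptprc, Epcam and Cdh1 averaged under 0.1 FPKM in both groups, and Csf1r was at 0.451 FPKM in RCE and 0.633 FPKM in control. The summed level was 1.327 to 1.596 FPKM in RCE and 1.415 to 1.657 FPKM in control for endothelium, 3.13 to 4.33 FPKM in RCE and 3.96 to 4.67 FPKM in control for leukocytes, and 1.23 to 2.39 FPKM in RCE and 1.98 to 2.89 FPKM in control for epithelium. The libraries numbered 1 of both groups stood apart from the others on a principal component with 36.5% of the variance. Nothing in the labels says that replicates came from separate cultures, so every p-value rests on spread among 6 libraries that may be technical only. In bulk RNA, fewer cells of a kind and less RNA per cell cannot be told apart.

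With the extract, 1 member rose and 5 fell. Ogn (osteoglycin) rose 2.48-fold in mean FPKM, while Prelp, Aspn, Podn, Fmod and Dcn fell by 14.7 to 35.1%. Bgn and Lum did not pass the threshold, and Omd and Ecm2 were too low to be tested. The 8 tested members averaged over 1 FPKM in each group. Among all 10870 genes tested, 24.3% were called, 17.6% higher and 6.77% lower, by limma on log2(FPKM + 1) with Benjamini-Hochberg adjustment at 0.05. The members were chosen with earlier results of these data known, so setting them beside these shares is a description and no test. The 5 lower calls among 8 members stand against that 6.77%, and the 1 higher call against 17.6%. These shares turned with scaling: 8.4% of genes were higher and 9.95% lower with sizes set by the median of ratios, and 7.22% higher and 7.88% lower after quantile normalization, with 1 member higher and 5 lower in both. The members' median change was -0.27, beside +0.08 for all genes tested (-0.34 beside 0.0002 with sizes set by the median of ratios). Changes are given as RCE minus control on the log2(FPKM + 1) scale, which understates them at low levels. Groups did not overlap for these 6 of the 8 tested members, beside 42.2% of genes tested (31.2% with RCE above and 10.9% with RCE below). The count of lower members, with the share of all genes tested that was lower in the same fit, was 3 without control 1 (5.86%), 3 without control 2 (4.1%) and 2 without control 3 (4.08%). It was 4 without RCE 1 (6.75%), 1 without RCE 2 (3.62%) and 1 without RCE 3 (4.24%). Without both libraries numbered 1 it was 6 (13.6%). With the replicate number as a block it stayed at 5, with 1 higher, while 46.6% of genes tested were then called higher and 15.9% lower.

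**Figure D1:**
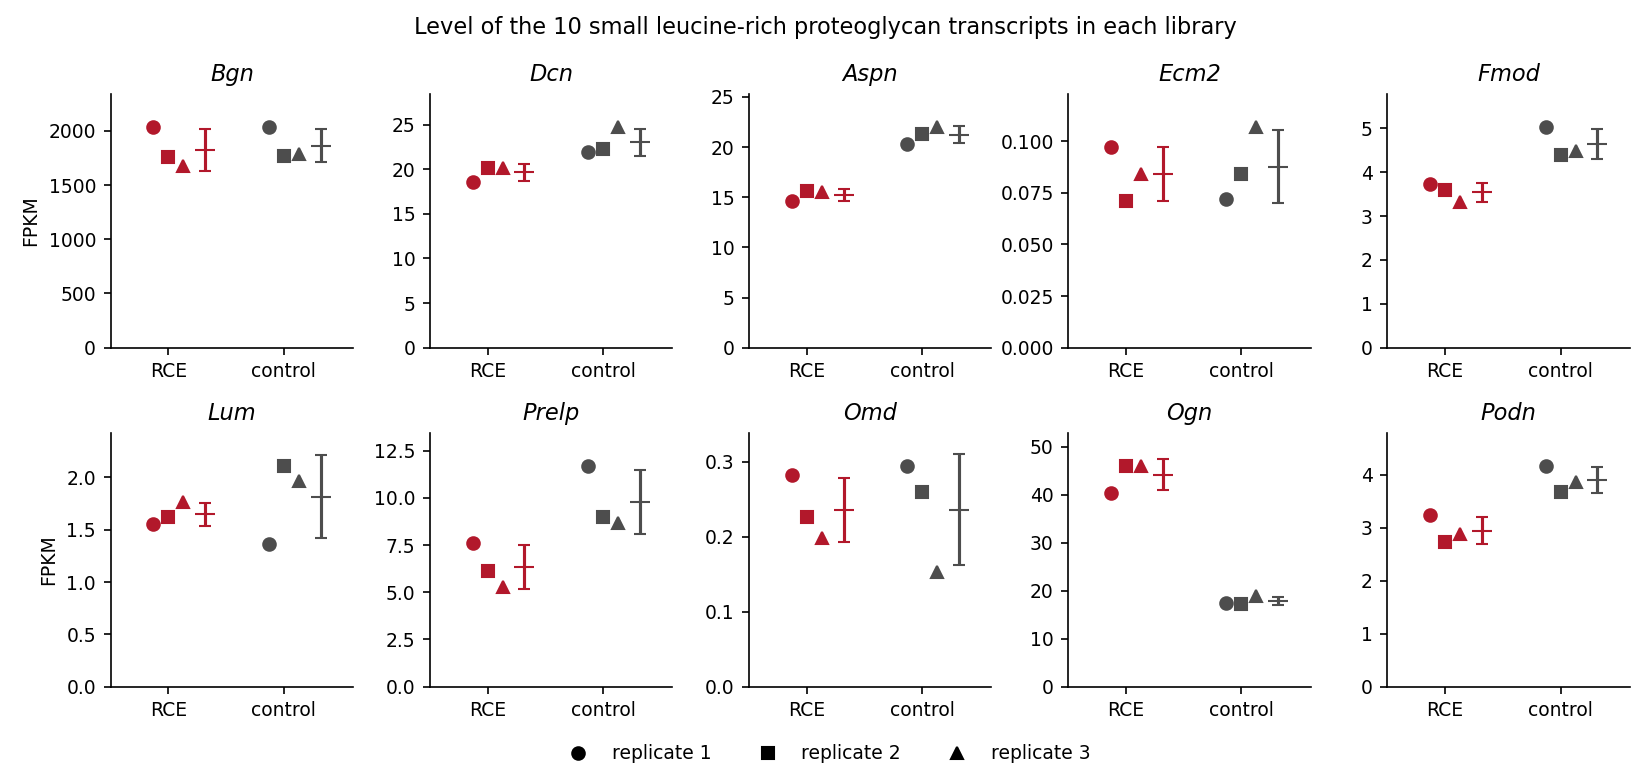
FPKM of each member (one panel each, axes from 0) in the 3 RCE and 3 control libraries. Symbols mark the replicate number, and the bar beside each group is the mean with its SD. Ogn is at 40.5 to 46.1 FPKM in RCE libraries, above the control libraries, while Aspn, Dcn, Fmod, Podn and Prelp lie lower in all RCE libraries.

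**Figure D2:**
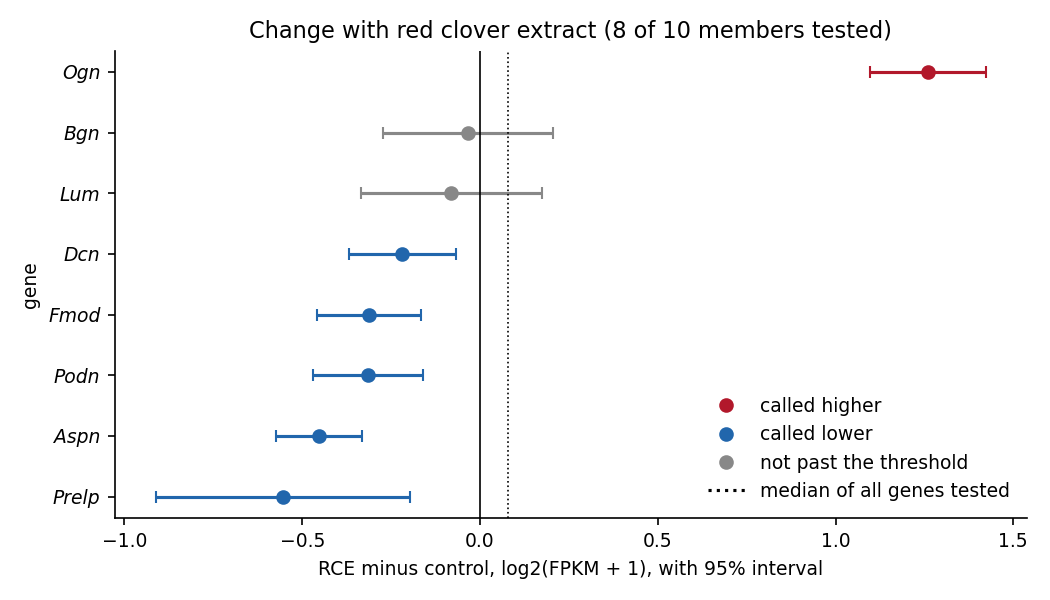
Change of the 8 tested members, RCE minus control on the log2(FPKM + 1) scale (horizontal axis), with its 95% interval from limma. Ogn stands at 1.26, and the 5 members called lower lie between -0.55 and -0.22. The dotted line is the median of all genes tested.

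The genes Ecm2, Aspn, Omd and Ogn lie in that order on the plus strand of chromosome 13, all inside the body of Cenpp (49464023 to 49652785, minus strand). Gaps of 11654, 14897 and 15224 bases separate them. RefSeq promoter windows (build GRCm38.p6, 250 bases before to 50 after each start) were matched for 8 of the 10 members. Those of these neighbours are shown because the genes share a short stretch of chromosome and yet differed in level and in direction of change. Capitals mark matches on either strand to the motifs searched: the TATA box TATAAA, the CCAAT box, the GC box GGGCGG, the AP-1 site TGANTCA, the hypoxia response core ACGTG and the E-box CACGTG, whose letters hold that core.
Ecm2 (chr13:49504560-49504859, plus strand): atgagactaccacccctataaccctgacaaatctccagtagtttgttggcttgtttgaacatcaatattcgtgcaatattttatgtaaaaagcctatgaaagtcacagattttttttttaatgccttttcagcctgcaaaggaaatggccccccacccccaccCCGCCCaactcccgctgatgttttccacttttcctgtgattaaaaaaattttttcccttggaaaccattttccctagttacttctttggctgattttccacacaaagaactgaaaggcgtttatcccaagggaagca
Aspn (chr13:49544193-49544492, plus strand): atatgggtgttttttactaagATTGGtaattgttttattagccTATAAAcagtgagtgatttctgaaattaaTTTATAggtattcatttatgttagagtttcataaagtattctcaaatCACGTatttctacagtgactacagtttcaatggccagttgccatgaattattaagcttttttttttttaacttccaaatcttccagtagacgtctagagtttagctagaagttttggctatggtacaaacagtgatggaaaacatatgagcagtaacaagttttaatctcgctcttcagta
Omd (chr13:49582212-49582511, plus strand): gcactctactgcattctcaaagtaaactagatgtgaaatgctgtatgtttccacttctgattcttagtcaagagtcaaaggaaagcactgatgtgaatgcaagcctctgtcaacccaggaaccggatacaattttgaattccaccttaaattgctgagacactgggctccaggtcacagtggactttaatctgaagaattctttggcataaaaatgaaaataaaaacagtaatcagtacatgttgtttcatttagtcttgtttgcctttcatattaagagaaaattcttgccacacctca
Ogn (chr13:49607765-49608064, plus strand): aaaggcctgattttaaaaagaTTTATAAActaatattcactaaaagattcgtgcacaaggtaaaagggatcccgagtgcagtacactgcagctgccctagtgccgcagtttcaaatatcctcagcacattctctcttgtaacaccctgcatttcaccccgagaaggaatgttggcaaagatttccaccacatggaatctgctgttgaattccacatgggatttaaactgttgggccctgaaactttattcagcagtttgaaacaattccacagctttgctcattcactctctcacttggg
TATAAA was found on both strands of the Aspn and Ogn windows and in 13.6% of all 32851 windows. Its matches began at -207 and -178 bases from the RefSeq start in Aspn and at -229 and -227 bases in Ogn. In Ogn these matches overlap. The Aspn window also held the CCAAT box and the hypoxia response core, each on the minus strand, found in 37.4% and 19.6% of windows. These began at -229 and -131 bases from the start. GGGCGG, on the minus strand of the Ecm2 window, occurred in 35.7%. The AP-1 site, present in 7.81% of windows, and the E-box, in 7.15%, were in none of the 4. A match is a description of letters and not of a bound site. G and C made up 42.3% of the Ogn window, 31.0% of the Aspn window, 37.7% of the Omd window and 41.0% of the Ecm2 window, all under the median of 52.7%.

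Ogn (ENSMUSG00000021390, chromosome 13, 49608046 to 49624501, mm10) encodes osteoglycin, also called mimecan, a class III member that binds collagen and was first purified from bone. It was at 40.5, 46.1 and 46.0 FPKM in RCE 1, 2 and 3, against 17.5, 17.3 and 18.8 FPKM in control 1, 2 and 3. The lowest RCE library was above the highest control library by more than the whole range within either group. Its 1 annotated transcript of 7 exons and 2566 bases makes these levels 4741 to 6970 fragments in RCE libraries and 2189 to 2426 in control libraries. Means were 44.2 ± 3.22 FPKM in RCE and 17.9 ± 0.864 FPKM in control (SD, n = 3 each). The change was 1.26 (SE 0.07, 95% interval 1.10 to 1.42, limma adjusted p = 0.000166). It was past the threshold in all 16 alternatives, at 1.18 to 1.32. Of the 10870 genes tested, 3 (0.0276%) had a larger positive change, chosen for naming after their values were seen: the retinal reductase Dhrs3 (2.02), the fatty acid binding protein Fabp4 (1.39) and the stress sensor Gadd45g (1.27).

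Aspn (ENSMUSG00000021388, chromosome 13, 49544443 to 49567565) ends 40481 bases before the start of Ogn on the same strand. It encodes asporin, a class I relative of decorin that is named for a stretch of aspartates, carries no glycosaminoglycan chain and binds collagen and TGF-beta. Levels were 14.6, 15.6 and 15.5 FPKM in RCE 1, 2 and 3 and 20.3, 21.3 and 22.0 FPKM in control 1, 2 and 3. Every RCE library was below every control library. The mean was 15.2 ± 0.578 FPKM in RCE and 21.2 ± 0.866 FPKM in control, a change of -0.45 (SE 0.05, 95% interval -0.57 to -0.33, limma adjusted p = 0.0024). This call also stood in all 16 alternatives, with changes of -0.54 to -0.42. The ratio of Ogn to Aspn was 2.78, 2.95 and 2.96 in RCE libraries against 0.859, 0.808 and 0.855 in control libraries. Ogn was thus the more abundant of the pair in each RCE library and the less abundant in each control library. With Ogn higher and Aspn lower in every RCE library, the ratio had to separate the groups, so it restates the 2 calls.

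The members between and beside them were near the floor. Omd (ENSMUSG00000048368, chromosome 13, 49582462 to 49592822) encodes osteomodulin, a class II keratan sulfate proteoglycan of mineralised tissue. Its levels were 0.282, 0.226 and 0.198 FPKM in RCE 1, 2 and 3, and 0.295, 0.26 and 0.153 FPKM in control 1, 2 and 3. Ecm2 (ENSMUSG00000043631, chromosome 13, 49504810 to 49532789), a matrix protein whose repeats resemble those of decorin, was at 0.097, 0.071 and 0.084 FPKM in RCE and 0.072, 0.084 and 0.107 FPKM in control, in the same order. On their longest annotated transcripts these levels are worth 17 to 36 fragments for Omd and 22 to 30 for Ecm2. The groups overlapped for both (2-sided exact permutation tests, p = 1 for Omd and p = 0.8 for Ecm2, where 0.1 is the smallest possible). At this depth a difference the size of that of Aspn may not be detectable in them.

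**Figure D3:**
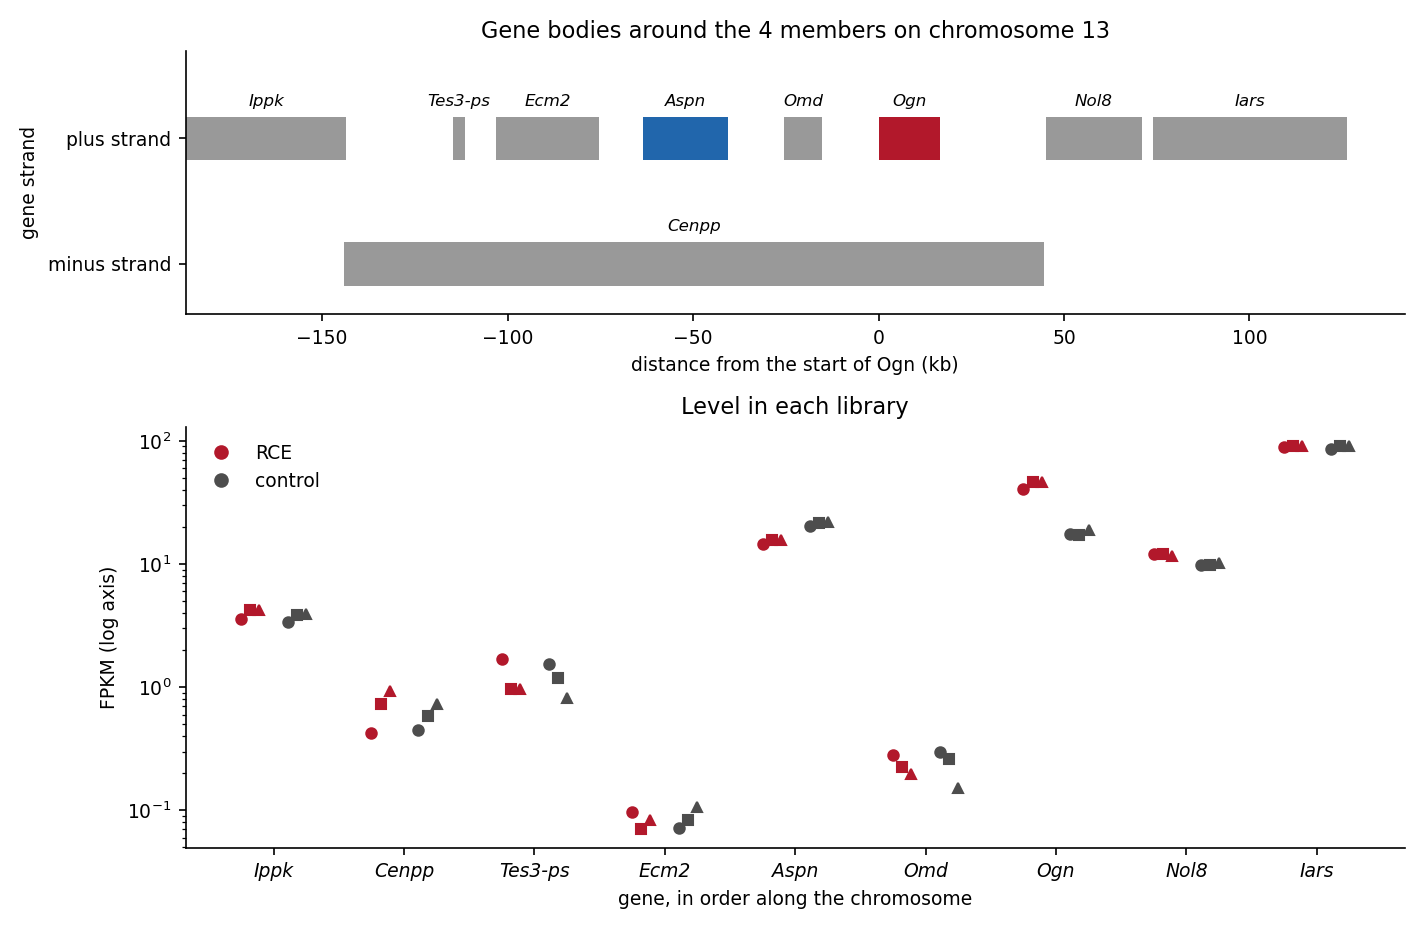
Upper panel, gene bodies around the members on chromosome 13 by strand, against distance from the start of Ogn in kb. Lower panel, FPKM (log axis) of each gene in every library, RCE left of control. Ogn is higher and Aspn lower in RCE libraries, while the genes between and around them show smaller differences.

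Other genes within 100 kb were compared to see whether the whole stretch moved. Cenpp, the centromere protein gene that spans all 4 members on the opposite strand, was at 0.421, 0.726 and 0.934 FPKM in RCE 1, 2 and 3 and at 0.451, 0.583 and 0.725 FPKM in control 1, 2 and 3, so the groups overlapped and it was not tested. Nol8, a nucleolar protein gene 28577 bases beyond Ogn, was called higher, at 11.9 ± 0.315 FPKM in RCE and 9.95 ± 0.215 FPKM in control (0.24, limma adjusted p = 0.0104). That call was lost under median-of-ratios scaling (adjusted p = 0.052) and without RCE 2 (0.0604). Iars, Ippk and Tes3-ps did not pass (adjusted p = 0.8, 0.423 and 0.967). Strand was not stated to be used in counting, and exons of Cenpp share 7 bases with those of Aspn and 0 with those of Ogn, Omd and Ecm2.

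Class I also holds the most abundant member, Bgn (ENSMUSG00000031375, chromosome X, 73483602 to 73495933). It encodes biglycan, which carries chondroitin or dermatan sulfate chains, binds collagen and can signal through Toll-like receptors once released. Its level was 2039, 1759 and 1672 FPKM in RCE 1, 2 and 3 and 2037, 1773 and 1784 FPKM in control 1, 2 and 3. The libraries numbered 1 were the highest of each group, and the groups overlapped. The mean was 1824 ± 192 FPKM in RCE and 1865 ± 150 FPKM in control, a change of -0.03 with a 95% interval of -0.27 to 0.20 (limma adjusted p = 0.838). The sign turned with quantile normalization (0.05), and without control 1 (0.03) or RCE 3 (0.03). With the replicate block and median-of-ratios scaling together it was called lower (-0.12, adjusted p = 0.0298). Of the genes within 100 kb of Bgn, Haus7 did not pass (0.04, limma adjusted p = 0.573). Gm18336, Zfp92, Trex2 and Atp2b3 did not exceed 0.009 FPKM in any library.

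Dcn (ENSMUSG00000019929, chromosome 10, 97479609 to 97518143) encodes decorin, the class I member that coats collagen fibrils, carries a single chondroitin or dermatan sulfate chain and binds TGF-beta and receptor tyrosine kinases. In RCE 1, 2 and 3 it was at 18.6, 20.2 and 20.2 FPKM, against 22.0, 22.3 and 24.8 FPKM in control 1, 2 and 3. The groups did not overlap, though the gap between them was small. The change was -0.22 (SE 0.06, 95% interval -0.37 to -0.07, limma adjusted p = 0.0481). Its call is the least firm of those made. It ended without any 1 of the libraries: control 1 (adjusted p = 0.0522), control 2 (0.103), control 3 (0.133), RCE 1 (0.0878), RCE 2 (0.116) or RCE 3 (0.102). Without both libraries numbered 1 it held (adjusted p = 0.00677).

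Among class II members, whose proteins carry keratan sulfate or none and mostly bind fibrillar collagen, Prelp and Fmod fell and Lum did not pass. Prelp (ENSMUSG00000041577, chromosome 1, 133910304 to 133921414, minus strand) encodes a protein whose basic N-terminus binds heparan sulfate. It had 7.63, 6.12 and 5.30 FPKM in RCE 1, 2 and 3 and 11.7, 8.96 and 8.66 FPKM in control 1, 2 and 3. In both groups the library numbered 1 was the highest, and every RCE library lay below every control library. Its mean was 6.35 ± 1.18 FPKM in RCE and 9.78 ± 1.68 FPKM in control, a change of -0.55 (SE 0.15, 95% interval -0.91 to -0.20, limma adjusted p = 0.0396). That was more negative than the change of Aspn, but not without control 1 (-0.43 for Prelp and -0.48 for Aspn) or RCE 3 (-0.45 for Prelp and -0.47 for Aspn). The call ended without control 1 (adjusted p = 0.0688), control 2 (0.0862), control 3 (0.0721), RCE 2 (0.123) or RCE 3 (0.112). It held at an adjusted p of 1.02e-05 with the replicate block, in which the spread between replicate numbers is taken out, and at 2.34e-04 without both libraries numbered 1. The antisense gene Gm15851 shares 350 exon bases with Prelp, and without strand their reads cannot be told apart.

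Fmod (ENSMUSG00000041559, chromosome 1, 134037254 to 134048277) lies near Prelp and encodes fibromodulin, which binds type I collagen and sets fibril diameter in tendon. It was at 3.72, 3.59 and 3.31 FPKM in RCE 1, 2 and 3, against 5.04, 4.39 and 4.49 FPKM in control 1, 2 and 3, with no overlap. The change was -0.31 (SE 0.06, 95% interval -0.46 to -0.17, limma adjusted p = 0.0146), and the call ended without RCE 2 (adjusted p = 0.0594) or RCE 3 (0.0551). Beyond Fmod, the antiproliferative gene Btg2 was at 58.6 ± 2.15 FPKM in RCE and 67.2 ± 2.25 FPKM in control (-0.20, limma adjusted p = 0.0339). That call ended without any 1 of RCE 1 (0.065), 2 (0.133) and 3 (0.0618) or of control 2 (0.121) and 3 (0.107). Chit1, further on, did not exceed 0.022 FPKM in any library. Optc, the next gene after Prelp on the other side, encodes opticin, a member of the family known from the vitreous of the eye. It was at 1.06, 0.672 and 0.5 FPKM in RCE 1, 2 and 3 and 0.741, 0.577 and 0.617 FPKM in control 1, 2 and 3, and the groups overlapped.

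Lum (ENSMUSG00000036446, chromosome 10, 97565128 to 97572703), 46985 bases beyond Dcn, encodes lumican, a keratan sulfate proteoglycan that keeps collagen fibrils of the cornea evenly spaced. Its levels of 1.56, 1.62 and 1.76 FPKM in RCE 1, 2 and 3 lay within those of control 1, 2 and 3, which were 1.36, 2.11 and 1.97 FPKM. The control library numbered 1 was the lowest of all. The change was -0.08 with a 95% interval of -0.33 to 0.17 (limma adjusted p = 0.626). Without both libraries numbered 1 it was called lower (-0.18, adjusted p = 0.0247). The neighbouring cornea and cartilage members Kera and Epyc, which follow Lum on the same strand, did not exceed 0.036 FPKM in any library.

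Podn (ENSMUSG00000028600, chromosome 4, 108014791 to 108096445, minus strand) encodes podocan, a class V member. Levels were 3.24, 2.73 and 2.89 FPKM in RCE 1, 2 and 3 and 4.18, 3.69 and 3.87 FPKM in control 1, 2 and 3, again with no overlap. The change was -0.32 (SE 0.06, 95% interval -0.47 to -0.16, limma adjusted p = 0.017). The call ended without control 3 (adjusted p = 0.061), RCE 2 (0.0697) or RCE 3 (0.0648). The body of Podn overlaps that of Scp2, a sterol carrier gene on the same strand, with 0 shared exon bases. Scp2 itself was at 19.7 ± 1.88 FPKM in RCE and 21.7 ± 2.35 FPKM in control (-0.13, limma adjusted p = 0.401, and 0.00397 with the replicate block). Cpt2 and Echdc2, also within 100 kb of Podn, had changes of the opposite sign (0.16 and 0.15). Neither passed the threshold (limma adjusted p = 0.099 and 0.152). The block made both calls higher (0.00495 and 0.00857), which were lost once median-of-ratios scaling was added to it (0.0818 and 0.123). Slc1a7 did not exceed 0.117 FPKM in any library, and Zyg11a did not exceed 0.016 FPKM.

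Because FPKM are per length, the members can be added up as shares. Bgn made up 95.8, 94.8 and 94.6% of the summed FPKM of the 10 members in RCE 1, 2 and 3 and 96.1, 95.7 and 95.5% in control 1, 2 and 3. Bgn was above 99.96% of the genes in the table by mean level. The other 9 members summed to 90.2, 96.2 and 95.3 FPKM in RCE and to 82.4, 80.4 and 84.9 FPKM in control, in the same order. Of this sum, Ogn was 47.0 ± 1.86% in RCE and 21.6 ± 0.521% in control (SD, n = 3 each). Dcn was 20.9 ± 0.282% in RCE and 27.9 ± 1.26% in control, and Aspn 16.2 ± 0.0723% in RCE and 25.7 ± 0.968% in control. Without Bgn and Ogn the remaining 8 summed to 49.7 ± 0.433 FPKM in RCE and 64.7 ± 1.46 FPKM in control. Each of these differences in sums and shares, other than that of Bgn (p = 0.3), reached 0.1 in 2-sided exact permutation tests, the smallest possible. Those that reached it are made up mostly of members already called, so they restate the calls and are no separate test. All 10 members summed to 1917 ± 189 FPKM in RCE and 1947 ± 150 FPKM in control (2-sided exact permutation test, p = 0.8).

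The order of levels changed at the top. In RCE libraries it ran Bgn, Ogn, Dcn, Aspn, Prelp, Fmod, Podn, Lum, Omd and Ecm2, with no overlap between neighbours in that order. In control libraries Bgn was followed by Dcn, Aspn and Ogn, and then by the same genes as in RCE. There, the ranges of Dcn and Aspn overlapped across libraries (21.98 to 24.8 and 20.3 to 22.0 FPKM), while Dcn was above Aspn within each of the 3 control libraries.

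**Figure D4:**
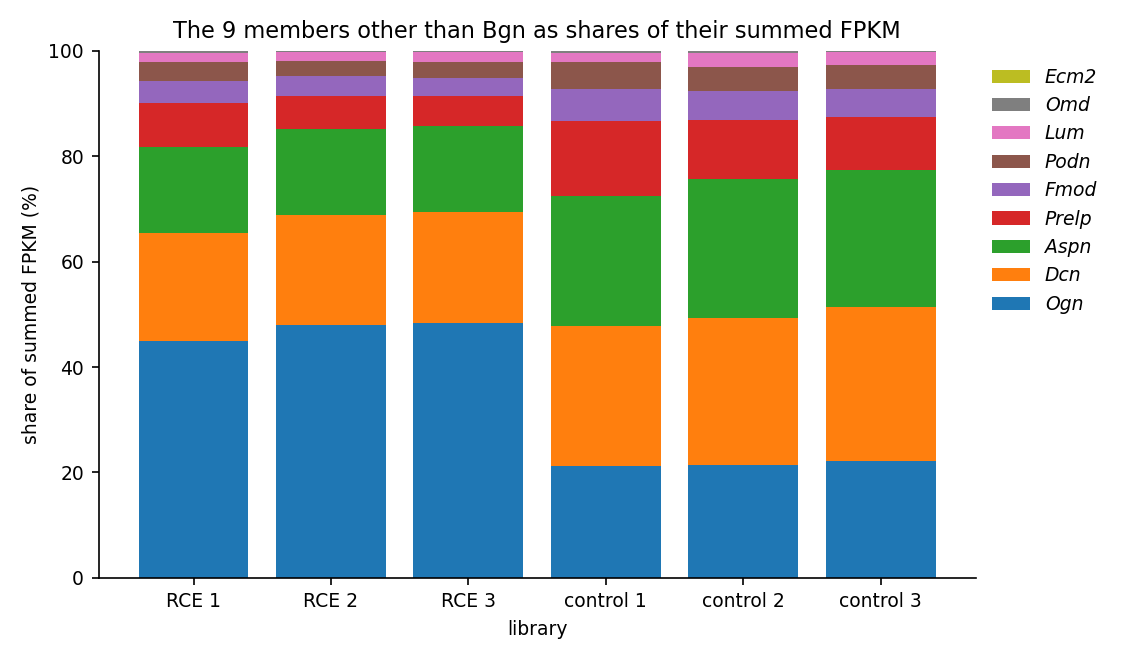
Shares (%) of the 9 members other than Bgn in their summed FPKM, one bar per library, RCE left of control. Ogn takes 44.9 to 48.3% in RCE libraries and 21.2 to 22.2% in control libraries, while the shares of Dcn and Aspn are smaller in RCE.

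Of the 9 other genes of the family, 2 were high enough to test and neither passed. Tsku, which encodes Tsukushi, a secreted class IV member that binds BMPs, was at 26.5, 24.1 and 23.4 FPKM in RCE 1, 2 and 3 and 31.5, 28.6 and 27.2 FPKM in control 1, 2 and 3. No RCE library reached the lowest control library, but the change of -0.23 did not pass (limma adjusted p = 0.067). It was called lower with the replicate block (adjusted p = 1.69e-04), with median-of-ratios scaling (0.0452), without RCE 1 (0.038) and without both libraries numbered 1 (0.00193). Podnl1, a podocan relative, was at 1.05 ± 0.135 FPKM in RCE and 1.07 ± 0.0115 FPKM in control (-0.02, adjusted p = 0.842).

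Fibrillar collagens, the main binding partners of the family, had 3 of 8 tested genes lower and 0 higher, with a median of -0.13 (5 lower with the replicate block). Beside this list and those that follow, 17.6% of all genes tested were higher and 6.77% lower. With the replicate block these shares were 46.6% and 15.9%. List counts near them mark nothing particular to a list. Col5a3, a chain of the type V collagen that starts fibrils, fell to 5.50 ± 0.416 FPKM in RCE, against 8.77 ± 0.514 FPKM in control (-0.59, limma adjusted p = 0.00234). This call stood in every alternative. Those of Col5a1 (-0.19, adjusted p = 0.0382) and Col11a1 (-0.28, adjusted p = 0.0395) both ended without control 2 (0.079 and 0.108), control 3 (0.124 and 0.0903), RCE 2 (0.148 and 0.0996) or RCE 3 (0.135 and 0.114). Col5a1 also ended without control 1 (0.087) and Col11a1 without RCE 1 (0.0718), so that 1 or 2 collagens were lower when a library was left out. With no low-value filter both calls ended (adjusted p = 0.0544 each), and 1 fibrillar collagen was higher and 1 lower. The call of Col5a1 also ended after quantile normalization (0.31), and that of Col11a1 at a minimum of 5 FPKM (0.0515). Among 5 tested matrix proteoglycans without leucine-rich repeats, the joint lubricant Prg4 was lower, at 1.65 ± 0.293 FPKM in RCE and 4.13 ± 0.719 FPKM in control (-0.95, adjusted p = 0.00363), a call that held without any 1 library. The basement membrane proteoglycan Hspg2 (perlecan) was at 157 ± 14.6 FPKM in RCE and 161 ± 13.3 FPKM in control (adjusted p = 0.815).

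The enzymes that build the sugar chains, and those that sulfate them, were counted in 3 lists. Of 6 tested enzymes of the linkage region, which starts chondroitin and dermatan sulfate chains, 0 were called by limma and 0 had an unadjusted p under 0.05. B3gat3 and Fam20b, the most abundant, were at 0.09 and 0.06 (adjusted p = 0.499 and 0.319, with B3gat3 called higher with the replicate block at 0.0192). Of 15 enzymes of chondroitin and dermatan sulfate, 1 was higher and 3 lower, with a median of 0.01 (5 higher and 4 lower with the replicate block). Chst11, which sulfates chondroitin at the 4-position of galactosamine, was at 8.50 ± 0.134 FPKM in RCE and 10.2 ± 0.218 FPKM in control (-0.24, adjusted p = 0.0079), and stood in every alternative. Papss2, which makes the sulfate donor (-0.19, adjusted p = 0.019), and Csgalnact1, which starts chondroitin chains (-0.22, adjusted p = 0.0199), ended without control 3 (0.061 and 0.0725), RCE 2 (0.0925 and 0.0841) or RCE 3 (0.057 and 0.0687), and Papss2 also without control 2 (0.0774). Chst15 was the higher one (0.19, adjusted p = 0.0195). Its call ended without control 1, 2 or 3 (0.0519, 0.0631 and 0.061), without RCE 2 or 3 (0.0547 and 0.0686), under median-of-ratios scaling (0.0795) and after quantile normalization (0.244).

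Keratan sulfate enzymes had 2 of 6 tested lower and 0 higher, with a median of -0.16 (4 lower with the replicate block). Chst1, the sulfotransferase that acts on galactose of keratan sulfate, was at 2.89, 2.92 and 2.59 FPKM in RCE 1, 2 and 3, against 4.33, 4.73 and 4.70 FPKM in control 1, 2 and 3. The change was -0.56 (SE 0.05, limma adjusted p = 0.0015), and it was past the threshold in every alternative that tested it. The galactosyltransferase B4galt1 changed by -0.21 (adjusted p = 0.0344), a call that ended without RCE 1, 2 or 3 (0.0652, 0.109 and 0.0845) or control 2 or 3 (0.114 and 0.0996), leaving Chst1 alone.

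The next list covers the processing of procollagen and of these proteoglycans, and holds Pcolce and Mmp genes beside the proteases that cut propeptides. Of 7 tested, 1 was higher and 1 lower, with a median of -0.11 (1 and 4 with the replicate block). Adamts14, a procollagen N-proteinase, was higher, at 4.58 ± 0.115 FPKM in RCE and 3.09 ± 0.0741 FPKM in control (0.45, limma adjusted p = 0.00101), without any 1 library too. Tll1, a relative of Bmp1, the protease that cuts the propeptide of biglycan, was at 17.2 ± 2.15 FPKM in RCE and 24.1 ± 3.20 FPKM in control (-0.46, adjusted p = 0.0408). That call ended without control 2 (0.131), control 3 (0.133), RCE 1 (0.0621), RCE 2 (0.0923) or RCE 3 (0.0724). It also ended with no low-value filter (0.0605) and at a minimum of 5 FPKM (0.0552). Among 14 receptors and growth factors that these proteins bind or signal through, 1 was higher and 1 lower, with a median of -0.03 (3 and 5 with the block). Bmp4 was at 9.27 ± 1.41 FPKM in RCE and 16.2 ± 2.33 FPKM in control (-0.74, adjusted p = 0.0111, and 0.0522 without RCE 2). Egfr, a receptor that decorin binds, was at 21.1 ± 0.408 FPKM in RCE and 18.4 ± 0.45 FPKM in control (0.19, adjusted p = 0.021). This did not pass under median-of-ratios scaling (0.181), after quantile normalization (0.0544), or without control 2 or 3 (0.0854 and 0.0678) or RCE 2 or 3 (0.0888 and 0.0664).

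**Figure D5:**
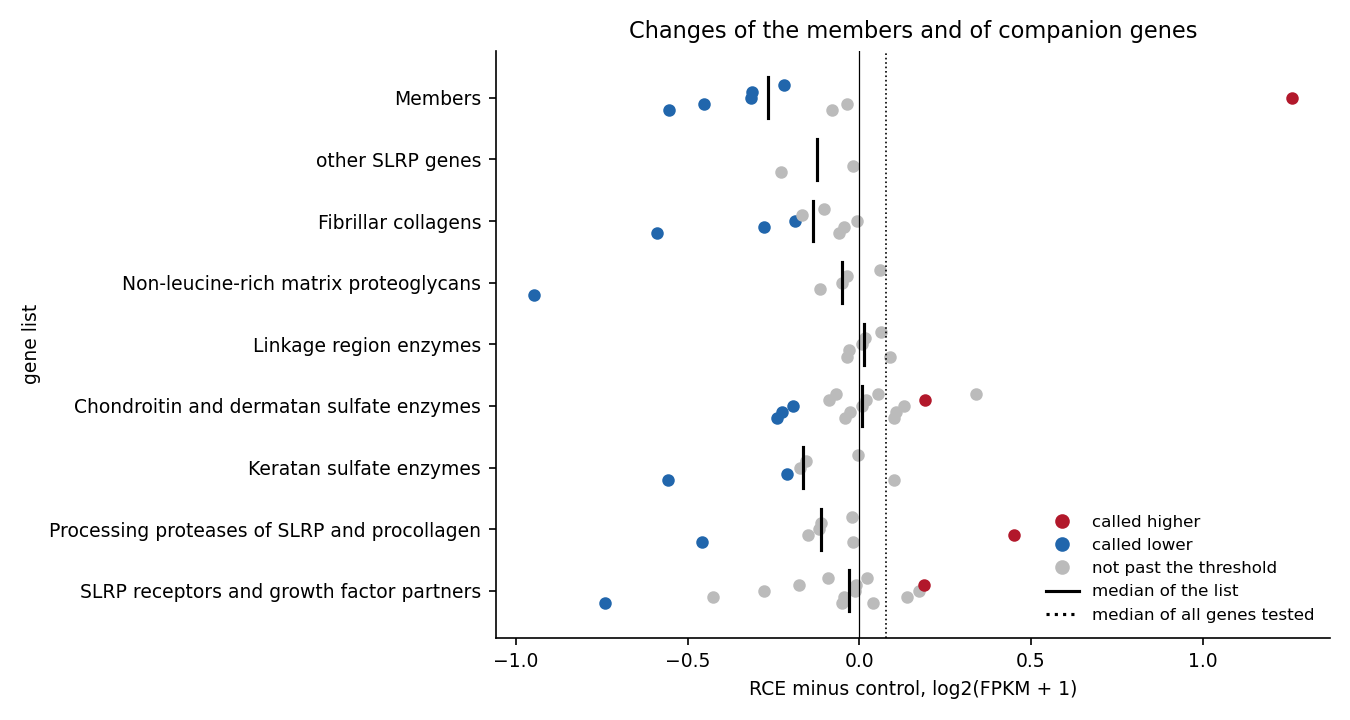
Change of each tested gene, RCE minus control on the log2(FPKM + 1) scale, for the members and for 8 companion lists; black bars are list medians and the dotted line the median of all genes tested. Lists other than the members have most genes within 0.3 of 0, and Ogn lies alone at 1.26.

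Some markers of other mesenchymal lineages, in which several members are known to be strongly expressed, also passed the threshold. Several in these lists were too low to be tested. Among all genes tested, 17.6% were higher and 6.77% lower. Adipocyte markers summed to 28.0 to 31.5 FPKM in RCE and 17.8 to 18.7 FPKM in control. Of 4, the 2 tested, Fabp4 and Pparg, were called higher, while Adipoq and Plin1 averaged under 0.1 FPKM. Chondrocyte markers summed to 4.26 to 6.53 FPKM in RCE and 11.97 to 16.7 FPKM in control. Of 6, 2 were tested and 1 was lower: Sox9, at 3.49 FPKM in RCE and 12.0 FPKM in control (-1.54, limma adjusted p = 0.00395). Sox9 made up most of that sum, and Col9a1 was at 0 in every library. Osteoblast markers summed to 4.70 to 5.26 FPKM in RCE and 5.63 to 6.48 FPKM in control, nearly all of it Runx2. Of 6, Runx2 was the only 1 tested and was lower (-0.25, adjusted p = 0.0236), with Ibsp at 0. Tendon markers summed to 25.451 to 35.002 FPKM in RCE and 69.1 to 97.1 FPKM in control. Of 5, 3 were tested, with Mkx higher and Egr1 lower. Egr1 made up most of that sum and is also an immediate-early gene. Smooth muscle and myofibroblast markers summed to 4100 to 4491 FPKM in RCE and 3852 to 4312 FPKM in control, with 1 of 5 higher (Des), and fibroblast markers to 4940 to 5030 FPKM in RCE and 5420 to 5540 FPKM in control, with 1 of 10 lower (Pdgfrb). The part of these differences in the levels of the members was not tested.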

How the data were processed

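Messenger RNA libraries (TruSeq Stranded kit, per the labels' protocols) gave 1 deposited FPKM value per gene and library. The unit follows from the submitters' processing notes, which name STAR 2.5.4, Cufflinks, Cuffdiff 2.2.1 and build mm10 without roles, since the file header names none. The annotation, filters, strand use and further scaling are not given in the sources used here. All 21853 gene identifiers were found in GENCODE M21, which gave coordinates and transcript lengths.

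The test was limma (version 3.58.1, in R 4.3.3), 2-sided, fitted to log2(FPKM + 1) with a trend on mean level. It covered the 10870 genes that averaged 1 FPKM or more across 6 libraries, with Benjamini-Hochberg adjustment over all of them. The fit was tested on simulated data. Members, companion lists and tests were chosen with earlier results of these data known. Named were all members, up to 4 called genes with the smallest p per list (or the most abundant, where fewer than 2 were called), genes within 100 kb of a member, Slc7a11 and the 2 genes most correlated with each called member.

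Depth is that at which low values (0.02 to 0.5 FPKM) of genes with 1 transcript are whole fragments, within 0.1. All of 315 to 395 values per library were whole there, against 13.4 to 14.9% at other depths. Pairs of libraries within a group differed by a chi-square of 2.86 to 29.6 per degree of freedom, above counting error.

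Groups share replicate numbers. Deviations from group means correlated at 0.919, 0.62 and 0.681 for numbers 1, 2 and 3, and the block pairs libraries by number. Deviations cancel out within a group, so with number 1 apart in both groups these correlations bear only on number 1. The data do not order replicates 2 and 3, since RCE 3 correlated more with control 2 (0.771). The 16 alternatives were other pseudocounts, filters and scalings, no trend, the replicate block, each library left out and both libraries numbered 1 left out.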

Additional observations from a re-analysis of the deposited data

How the results depend on the processing

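Calls of Ogn and Aspn stood under every alternative, and no called member changed sign. With the replicate block the member counts (1 higher, 5 lower) and each member's call were unchanged, while calls over all genes moved from 1910 higher and 736 lower to 5060 and 1730 (2871 and 3013 with median-of-ratios scaling as well, where Bgn was called lower at -0.12). Within pairs, the exact permutation test of Slc7a11 gave p = 0.25, the smallest that 3 pairs can give, for a difference of -0.0147 FPKM.

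Calls over all genes were 867 higher and 485 lower with a minimum mean of 5 FPKM, 913 and 1082 with median-of-ratios scaling, 785 and 857 with quantile normalization, and 4364 and 1480 without both libraries numbered 1. Leaving out 1 library gave 685 to 2040 higher and 394 to 734 lower. The share of higher calls, 72.2%, was 45.8% with median-of-ratios scaling and 47.8% with quantile normalization. These scalings left the members' counts at 1 and 5.

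With no low-value filter 3 members were lower, and with a minimum of 5 FPKM 1 of 5 tested. Dcn (-0.22, adjusted p = 0.06 and 0.0611) and Prelp (-0.55, 0.0609 and 0.0538) were lost in both, where the number of genes tested also changed. Members lower ran from 1 to 4 with 1 library left out. In those fits Dcn ran from -0.25 to -0.17, Prelp from -0.67 to -0.43, Fmod from -0.34 to -0.26, Podn from -0.37 to -0.27, Lum from -0.20 to -0.0027, and Bgn from -0.12 to 0.03 (0.031 without control replicate 1, 0.026 without RCE replicate 3 and 0.051 with quantile normalization). Lum was called lower (-0.18) without both libraries numbered 1. The members' median change (-0.27) was -0.30 with a pseudocount of 0.1, -0.15 with no filter, -0.22 at a minimum of 5 FPKM, -0.34 after median-of-ratios scaling (block or not), and -0.33 with quantile normalization. The cause of these differences was not tested. Of 256 list counts under alternatives, 73 moved by over 1.5 times or went to or from 0, which can be a change of 1 gene. Of 128 list medians, 39 moved by more than the spread between pairs. Depth limits Omd and Ecm2, with at most 36 fragments per library.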

Other observations

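The genes most like each called member over the 6 libraries, by Pearson r of log2(FPKM + 1) among genes tested, were listed as a description. With 6 libraries in 2 groups, many genes reach a high r. For Ogn they were Pik3r3, a regulatory subunit of PI3-kinase, and Osbpl6, an oxysterol-binding protein relative (r = 0.999 each), and 112 genes were above 0.99. For Aspn they were the cysteine dioxygenase Cdo1 (r = 0.9995), at 4.56 FPKM in RCE and 6.26 FPKM in control, and the matrix protein Svep1 (r = 0.999), at 31.0 FPKM in RCE and 47.4 FPKM in control. The platelet-derived growth factor receptor Pdgfrb was second for Fmod (r = 0.995), at 68.5 FPKM in RCE and 85.0 FPKM in control. Dcn had 1 gene above 0.99, Fndc3b (r = 0.995), and then Sap18 (r = 0.989). For Prelp they were Kif1c and Zfp36 (r = 0.999 and 0.998), for Podn Npy1r and Klf9 (r = 0.996 and 0.995), and for Fmod the first was Rab3ip (r = 0.995).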
